A study of Mus musculus with 6 samples.

Results

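The urea cycle was read here through 7 genes, those of its 5 enzymes (Cps1, Otc, Ass1, Asl and Arg1), of the enzyme that makes the activator of Cps1 (Nags) and of the mitochondrial ornithine carrier (Slc25a15). All probe sets carrying 1 of these gene symbols were taken, which gave 11 of the 45037 probe sets tested, namely 3 for Otc, 2 each for Ass1 and Slc25a15, and 1 for each of the others. The cycle turns the ammonia released by amino acid breakdown into urea, and in mammals the whole route runs mainly in hepatocytes, most strongly in those around the portal vein. Its first steps lie inside the mitochondrion, where Nags makes N-acetylglutamate, the obligate activator of Cps1, Cps1 fixes ammonia as carbamoyl phosphate and Otc joins this to ornithine. Citrulline then leaves for the cytosol, where Ass1 joins it to aspartate, Asl splits the product into arginine and fumarate, and Arg1 cuts arginine into urea and ornithine, which Slc25a15 carries back into the mitochondrion.

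Liver RNA of male C57BL/6J mice, 6 weeks old when obtained, was hybridised to 6 Affymetrix MG-430 PM arrays, with 3 groups of 2. CTL mice ate laboratory chow and received the vehicles alone, which were corn oil for CCl4, dimethyl sulfoxide for T0901317 and the vehicle of isorhamnetin. NASH mice ate a diet with 60% of calories from fat from day 0 to day 24, were injected with CCl4, a liver toxin, at 0.1 ml/kg on days 14, 17, 21 and 24, and with T0901317, an agonist of the LXR receptors, at 2.5 ml/kg 5 times between day 20 and day 24. NASH+ISO mice had the same diet and injections and were also given isorhamnetin, a methylated flavonol, by mouth at 50 mg/kg each day from day 11 to day 24, in place of the vehicle that CTL and NASH mice received. Both diseased groups therefore combine the diet, the toxin and the LXR agonist, whose parts cannot be told apart. By the labels, both arrays of each group are technical repeats, and the study kept 8 mice per group. Every SD, SE and p-value below therefore covers variation among arrays only, and variation among mice is not included.

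Values are RMA signals on the log2 scale, where a difference of 1 is a doubling of signal, and a probe set's level can be set only against the same probe set on other arrays. Medians of the 6 arrays lay between 3.46 and 3.50, and the median gap between the repeats of a group was 0.0472 to 0.0529. The highest value of control probe sets with no mouse target was 2.90, and all 11 urea cycle probe sets lay above it on every array. Groups were compared with limma over all 6 arrays, with p-values adjusted over all 45037 probe sets, and a probe set was called at an adjusted p under 0.05. Calls were common. In NASH against CTL 49.2% of all probe sets were called (22.0% higher and 27.2% lower), in NASH+ISO against CTL 42.7% (21.2% and 21.5%) and in NASH+ISO against NASH 37.2% (19.5% and 17.7%).

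Compared to CTL, 4 of the 7 genes were lower in NASH, where 28.3% of all genes were called lower and 24.7% higher, and they were the consecutive enzymes Otc, Ass1, Asl and Arg1. By the brightest probe set of each gene, signal in NASH was 65.2% of CTL for Otc, 68.6% for Ass1, 38.4% for Asl and 75.4% for Arg1. The genes of the entry to the cycle and of the carrier did not pass in these probe sets, with NASH at 101% of CTL for Nags, 102% for Cps1 and 104% for Slc25a15. These 3 small differences turned their sign after quantile normalization, to -0.11, -0.06 and -0.03 log2, without a call. Over all probe sets, 7 of 11 were lower and 1 was higher, where 27.2% and 22.0% of all probe sets were called, and 32.4% and 34.7% of the probe sets brighter than the median. Their median difference was -0.54 log2, and that of all probe sets tested was -0.04. Otc and Ass1 count more than once in that median. By 1 probe set per gene it was -0.41 for the 7 genes and -0.03 for all genes. In bulk liver RNA, fewer hepatocytes and less RNA per hepatocyte cannot be told apart.

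**Figure D1:**
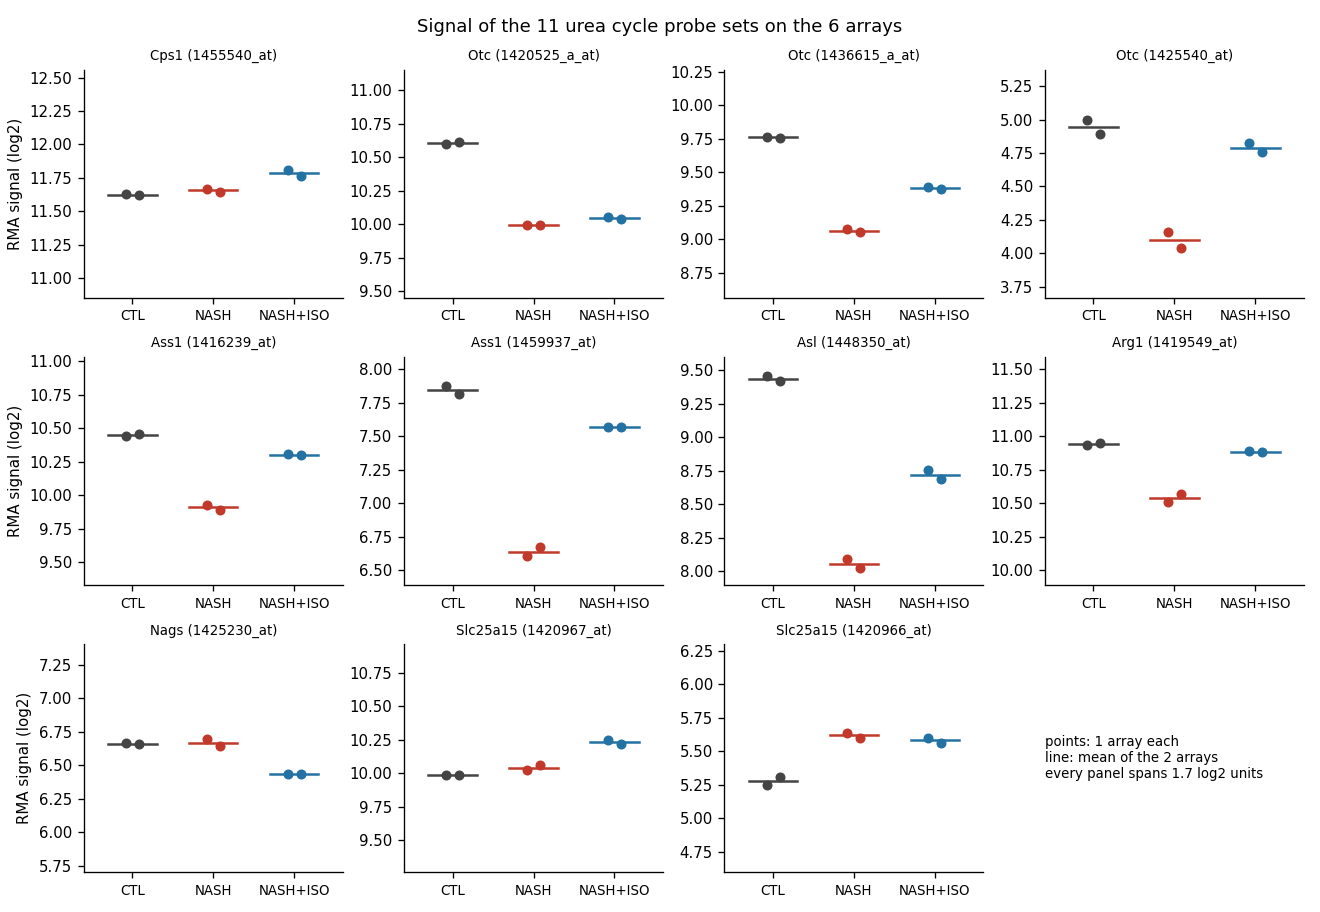
Signal (log2, vertical axis) of the 11 urea cycle probe sets in CTL, NASH and NASH+ISO liver. Each point is 1 array and each line the mean of the 2 arrays of a group, and every panel spans the same 1.7 log2 units. Asl and the dimmer Ass1 probe set show the deepest falls in NASH, with NASH+ISO between NASH and CTL, whereas Cps1, Nags and the brighter Slc25a15 probe set did not pass between CTL and NASH.

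Promoter sequences of Otc and Ass1, which fell in NASH, and of Nags and Slc25a15, which did not fall, are shown so that the sequence at their starts can be seen beside the values. The sequences come from RefSeq (GRCm38.p6) and run from 250 bases before to 50 bases after the annotated start, and 4 of the 7 genes matched the table. Cps1, Asl and Arg1 were not matched. The windows are chrX:10252055-10252354 (plus strand) for Otc, chr2:31470020-31470319 (plus strand) for Ass1, chr11:102145263-102145562 (plus strand) for Nags and chr8:22398572-22398871 (minus strand) for the first of the 2 windows of Slc25a15. Capitals mark the GC box GGGCGG on either strand.
Otc: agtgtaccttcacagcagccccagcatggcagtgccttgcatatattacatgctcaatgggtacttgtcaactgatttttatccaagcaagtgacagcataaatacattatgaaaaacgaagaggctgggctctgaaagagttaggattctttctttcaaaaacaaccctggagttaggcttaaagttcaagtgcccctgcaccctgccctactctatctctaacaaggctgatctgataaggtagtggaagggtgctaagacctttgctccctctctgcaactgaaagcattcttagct
Ass1: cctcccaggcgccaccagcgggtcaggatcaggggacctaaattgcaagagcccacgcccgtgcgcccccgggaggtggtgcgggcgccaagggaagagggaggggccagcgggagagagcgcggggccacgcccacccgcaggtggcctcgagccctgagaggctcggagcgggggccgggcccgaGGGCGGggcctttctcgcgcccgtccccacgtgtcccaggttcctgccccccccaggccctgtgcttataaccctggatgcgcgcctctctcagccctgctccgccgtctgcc
Nags: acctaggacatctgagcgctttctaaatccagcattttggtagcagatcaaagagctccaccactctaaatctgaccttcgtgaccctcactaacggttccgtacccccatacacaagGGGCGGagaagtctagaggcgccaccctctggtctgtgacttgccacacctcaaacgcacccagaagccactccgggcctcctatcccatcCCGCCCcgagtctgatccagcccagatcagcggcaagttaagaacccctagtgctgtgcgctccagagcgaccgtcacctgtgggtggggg
Slc25a15: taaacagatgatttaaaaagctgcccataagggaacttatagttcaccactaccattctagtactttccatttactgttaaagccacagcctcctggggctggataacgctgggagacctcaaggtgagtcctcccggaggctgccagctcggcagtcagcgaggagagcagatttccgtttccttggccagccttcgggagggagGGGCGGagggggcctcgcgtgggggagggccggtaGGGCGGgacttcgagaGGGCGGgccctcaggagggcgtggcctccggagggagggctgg

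The windows of Otc and Ass1 differed in these letters. The Otc window had 44.3% G and C, lower than most promoters, and no exact match to the motifs searched. The Ass1 window had 74.0% and 1 GC box, at -63 from the start. Nags had 57.7% G and C and GC boxes at -132 and -41. The first window of Slc25a15 had 60.7% with GC boxes at -44, -9 and 8, and its second window, which is not printed, had 79.0% with 5 matches of the GC box, the last pair overlapping. The median over all promoters was 52.7%, and 35.7% of 32851 promoters of this length held a GC box. The other motifs searched on both strands were the TATA box TATAAA, the CCAAT box, the cAMP response element TGACGTCA, the C/EBP motif TTGCNNAA, the STAT motif TTCNNNGAA, the HNF4 motif CAAAGTCCA and the glucocorticoid receptor motif AGAACA, and none was found in these windows. They were present in 13.6%, 37.4%, 1.79%, 10.8%, 8.3%, 0.475% and 19.0% of all promoters, respectively. Only these exact letters were sought, with N for any base, so variants of a motif were missed. The lack of a match therefore does not show that a binding site is absent.

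Entry of ammonia was first examined. Nags read 6.67 and 6.66 log2 on the CTL arrays, 6.70 and 6.64 on the NASH arrays and 6.44 and 6.43 on the NASH+ISO arrays. Its CTL and NASH arrays overlapped (difference 0.01, SE 0.0398, adjusted p = 0.874), and both NASH+ISO arrays lay below all others. Nags was thus the single member that was lower in NASH+ISO than in NASH, by -0.23 (SE 0.0398, adjusted p = 0.00361), and lower than in CTL, by -0.23 (SE 0.0398, adjusted p = 0.00341), which is 85.5% of the CTL signal. Cps1, the enzyme that Nags serves, read 11.63 and 11.62 for CTL, 11.67 and 11.65 for NASH and 11.81 and 11.77 for NASH+ISO. The groups did not overlap, although the step from CTL to NASH was 0.03 (SE 0.039, adjusted p = 0.518). NASH+ISO was higher than CTL by 0.16 (SE 0.039, adjusted p = 0.0131) and higher than NASH by 0.13 (SE 0.039, adjusted p = 0.0357). These 2 calls were weak. Against CTL the adjusted p was 0.0528 without CTL array 2, 0.0654 without NASH+ISO array 1 and 0.15 after quantile normalization, and against NASH it was 0.0503 to 0.146 when any of the 6 arrays was left out. The signal of Cps1 is near the top of the range, where the brightest probe set read 12.74, and whether this compressed its differences was not tested.

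The ornithine carrier gave different answers by probe set. The brighter probe set of Slc25a15, 1420967_PM_at, read 9.99 and 9.99 for CTL, 10.02 and 10.06 for NASH and 10.25 and 10.22 for NASH+ISO. It did not pass in NASH against CTL (0.05, SE 0.0392, adjusted p = 0.313) and was higher in NASH+ISO than in CTL by 0.25 (SE 0.0392, adjusted p = 0.00205) and than in NASH by 0.20 (SE 0.0392, adjusted p = 0.00749, or 0.0507 without NASH array 1). The dimmer probe set, 1420966_PM_at, read 5.25 and 5.31 for CTL, 5.63 and 5.60 for NASH and 5.60 and 5.56 for NASH+ISO. It was higher than CTL in both diseased groups, by 0.34 in NASH (SE 0.0426, adjusted p = 0.000502) and by 0.30 in NASH+ISO (SE 0.0426, adjusted p = 0.00111), and did not pass between them (-0.04, SE 0.0426, adjusted p = 0.552). Neither probe set was called lower in NASH against CTL, where Otc and Arg1, the enzymes on either side of the carrier, were, and the difference between the genes was not tested.

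Otc, which makes citrulline from ornithine and carbamoyl phosphate, was lower in NASH by all 3 of its probe sets. The brightest, 1420525_PM_a_at, read 10.60 and 10.62 for CTL, 9.99 and 9.99 for NASH and 10.05 and 10.04 for NASH+ISO, a difference of -0.62 in NASH (SE 0.0372, adjusted p = 1.16e-05) and of -0.56 in NASH+ISO against CTL (SE 0.0372, adjusted p = 2.68e-05). By this probe set the NASH and NASH+ISO arrays lay side by side far below CTL, with 0.05 between their means (SE 0.0372, adjusted p = 0.308). This difference was 0.14 and called after quantile normalization (adjusted p = 0.0242), and it was also called without moderation of the spread (adjusted p = 0.0356) and with a prior that follows the mean level (adjusted p = 0.00579). Probe set 1436615_PM_a_at read 9.76 and 9.76 for CTL, 9.07 and 9.05 for NASH and 9.39 and 9.37 for NASH+ISO, so here NASH+ISO lay between the other groups, 0.32 above NASH (SE 0.0375, adjusted p = 0.000699) and -0.38 from CTL (SE 0.0375, adjusted p = 0.000192). The dimmest, 1425540_PM_at, read 5.00 and 4.89 for CTL, 4.16 and 4.04 for NASH and 4.82 and 4.76 for NASH+ISO. NASH differed from CTL by -0.84 (SE 0.0592, adjusted p = 2.46e-05), and NASH+ISO was 0.69 above NASH (SE 0.0592, adjusted p = 0.000167) and did not pass against CTL (-0.15, SE 0.0592, adjusted p = 0.0777, and 0.0256 to 0.0464 with a replicate block, quantile normalization or the authors' second set of values). The fall in NASH was therefore common to the 3 probe sets, and the extent of return in NASH+ISO was not. Within an array, the brightest minus the middle probe set was 0.84 and 0.86 for CTL, 0.92 and 0.94 for NASH and 0.67 and 0.67 for NASH+ISO, and this change in their ratio was not tested.

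Ass1 joins citrulline to aspartate, the step that brings in the second nitrogen of urea. Its brighter probe set, 1416239_PM_at, read 10.44 and 10.46 for CTL, 9.93 and 9.89 for NASH and 10.30 and 10.30 for NASH+ISO. NASH arrays were lowest and NASH+ISO arrays lay just under CTL, with differences of -0.54 for NASH against CTL (SE 0.0385, adjusted p = 2.59e-05) and 0.39 for NASH+ISO against NASH (SE 0.0385, adjusted p = 0.000301). The remaining gap between NASH+ISO and CTL was -0.15 (SE 0.0385, adjusted p = 0.0178), a call that was lost when any of the 4 arrays compared was left out (adjusted p = 0.0515 without CTL array 1, 0.0699 without CTL array 2, 0.0585 without NASH+ISO array 1 and 0.0658 without NASH+ISO array 2). The dimmer probe set, 1459937_PM_at, showed the same order over a wider range, at 7.87 and 7.81 for CTL, 6.60 and 6.67 for NASH and 7.57 and 7.57 for NASH+ISO. It changed by -1.21 in NASH (SE 0.044, adjusted p = 1.15e-06) and stood 0.93 above NASH in NASH+ISO (SE 0.044, adjusted p = 1.75e-05), the widest rise of any urea cycle probe set in that comparison. NASH+ISO was at 82.7% of CTL by this probe set and at 90.1% by the brighter one.

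Asl was the most reduced member by signal ratio. It read 9.46 and 9.42 for CTL, 8.09 and 8.03 for NASH and 8.75 and 8.69 for NASH+ISO, with no overlap between any groups. In NASH it differed from CTL by -1.38 (SE 0.0458, adjusted p = 7.53e-07), or 2.6-fold lower. In NASH+ISO it was 0.66 above NASH (SE 0.0458, adjusted p = 7e-05) and -0.72 from CTL (SE 0.0458, adjusted p = 2.27e-05), which left it at 60.8% of the CTL signal. Among all 45037 probe sets, its change in NASH was at percentile 0.431 counted from the largest fall.

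Arg1, which releases urea, changed least among the 4 lower enzymes. It read 10.93 and 10.95 for CTL, 10.51 and 10.57 for NASH and 10.89 and 10.88 for NASH+ISO. The NASH arrays lay clearly below the rest, by -0.41 against CTL (SE 0.0406, adjusted p = 0.000152), and NASH+ISO was 0.35 above NASH (SE 0.0406, adjusted p = 0.000636). NASH+ISO and CTL differed by -0.06 (SE 0.0406, adjusted p = 0.291), with NASH+ISO at 96.1% of CTL. With a prior that follows the mean level, this last difference was called at adjusted p = 0.0111. Arg2, the mitochondrial arginase of tissues other than liver, lay under 2.90 in all 3 groups.

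**Figure D2:**
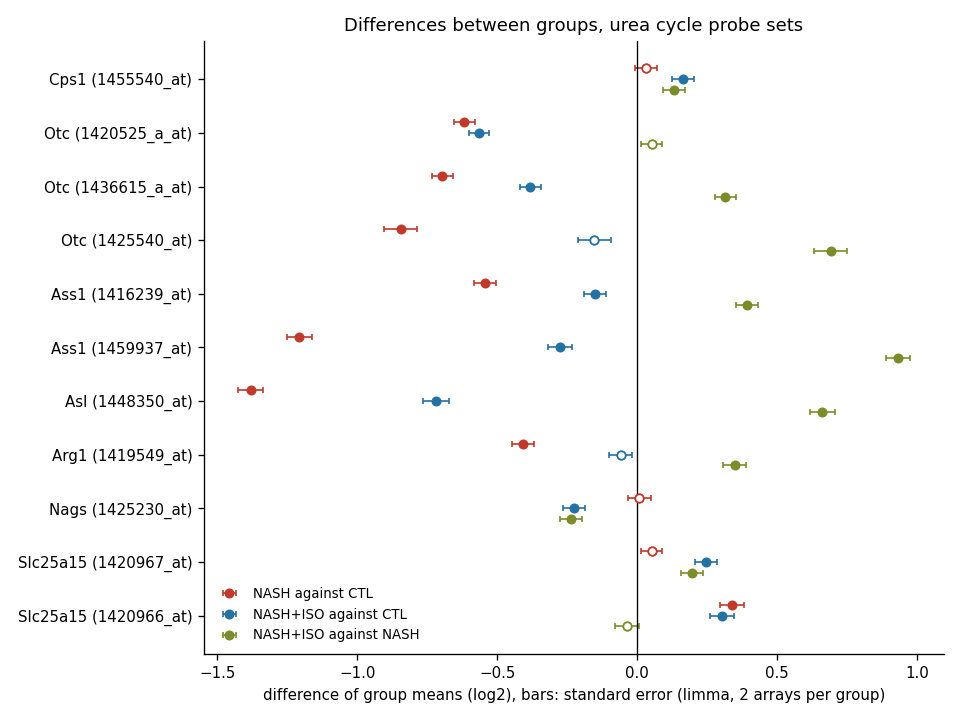
Differences of group means (log2, horizontal axis) for each urea cycle probe set, with standard errors from limma over 2 arrays per group. Filled points passed at an adjusted p under 0.05 and open points did not, and the colours give the 3 comparisons. Otc, Ass1, Asl and Arg1 lie left of 0 in NASH against CTL and, with the exception of the brightest Otc probe set, pass on the right of 0 in NASH+ISO against NASH.

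In NASH+ISO compared to NASH, 5 of the 7 genes were higher by their brightest probe set (Cps1, Ass1, Asl, Arg1 and Slc25a15), 1 was lower (Nags) and 1 did not pass (Otc, a call that changed with the setting as given above), where 19.9% of all genes were called higher and 19.8% lower. Over all probe sets 8 of 11 were higher and 1 lower, where 19.5% and 17.7% of all probe sets were called, and 25.0% and 28.1% of those brighter than the median. The median difference was 0.32 log2 over the 11 probe sets and 0.02 over all probe sets. By 1 probe set per gene it was 0.20 over the 7 genes and 0.02 over all genes. When the probe sets of each gene were averaged, Otc was called higher, by 0.35 (adjusted p = 0.000357), and Slc25a15 did not pass, at 0.08 (adjusted p = 0.0903). The Cps1 call is among these 5, with the limits given above.

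Compared to CTL, NASH+ISO had 4 genes lower (Otc, Ass1 and Asl, which were also lower in NASH, and Nags, which was not) and 2 higher (Cps1 and Slc25a15), while Arg1 did not pass, where 23.0% of all genes were called lower and 23.3% higher. Over all probe sets 6 were lower and 3 higher of 11, where 21.5% and 21.2% of all probe sets were called, and 28.0% and 31.7% of those brighter than the median. Their median was -0.15 log2, and that of all probe sets tested was -0.01. The same CTL arrays serve both comparisons with CTL and the same NASH arrays serve both comparisons with NASH, so these sets of differences are not independent of each other. At the study's own thresholds, a fold change of at least 2 with an unadjusted p under 0.05, 2 of the 11 probe sets passed in NASH against CTL, those of Asl and the dimmer Ass1, where 3.6% of all probe sets passed and 1.11% passed as lower. In NASH+ISO against CTL 0 of 11 passed, where 2.14% of all did (0.79% as lower), and in NASH+ISO against NASH 0 of 11, where 0.77% did (0.533% as lower).

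**Figure D3:**
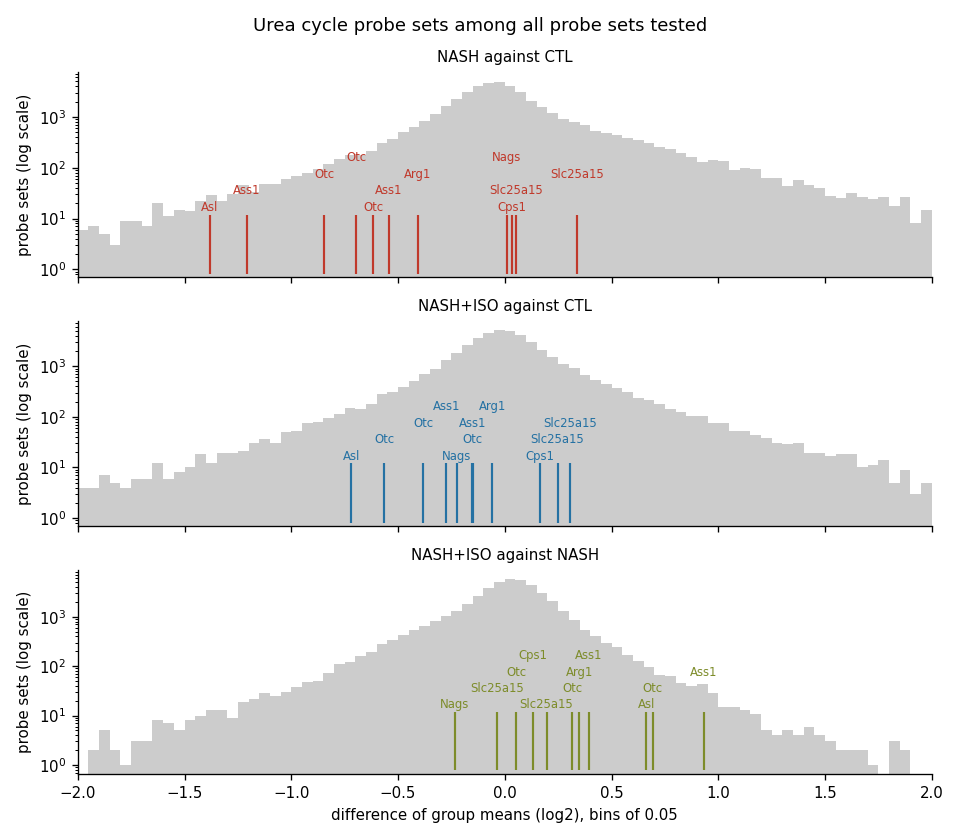
Histograms of the differences of group means (log2, bins of 0.05) of all 45037 probe sets in the 3 comparisons, with the number of probe sets on a log axis and coloured ticks at the urea cycle probe sets, labelled by gene. The axis ends at 2 log2 units either way, which leaves out 217, 156 and 36 probe sets from top to bottom. In NASH against CTL, 7 ticks lie between -1.38 and -0.41, and in NASH+ISO against NASH 8 of the ticks lie between 0.13 and 0.93.

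Genes that supply the cycle with ammonia, bicarbonate, glutamate and aspartate were examined next. Of 14 such genes, 8 were lower, 2 higher and 4 not called in NASH against CTL, with a median of -0.14, where 28.3% of all genes were called lower and 24.7% higher. Among the 8, Gpt2, Got2 and Mdh1 each also had probe sets called higher (3 for Gpt2 and 1 for each of the others), so their direction is open. Gls2, the glutaminase of periportal liver that releases ammonia from glutamine, read 9.87 and 9.85 for CTL, 7.48 and 7.47 for NASH and 8.70 and 8.67 for NASH+ISO, the largest fall of the list (-2.38, SE 0.0383, adjusted p = 5.04e-08). Car5a, the mitochondrial carbonic anhydrase that provides bicarbonate to Cps1, read 7.66 and 7.61, 6.96 and 6.97, and 7.31 and 7.28 in the same order, and its NASH arrays were lowest (-0.67, SE 0.0395, adjusted p = 1.05e-05). Fh1, the fumarase that takes up the fumarate released by Asl, was lower in NASH by -0.72 (SE 0.0385, adjusted p = 6.23e-06) and stayed without a call between the diseased groups (0.09, SE 0.0385, adjusted p = 0.118). Slc25a13, the carrier that exports aspartate for Ass1, did not pass in NASH (-0.06, SE 0.0389, adjusted p = 0.242). Between NASH and NASH+ISO, 9 of the 14 rose, 1 fell and 4 were not called, with a median of 0.15, where 19.9% of all genes were called higher and 19.8% lower. Got2 is among the 9 and had 1 probe set called lower. Gls2 rose by 1.21 (SE 0.0383, adjusted p = 4.38e-06), Got1, the cytosolic enzyme that makes aspartate, by 0.63 (SE 0.041, adjusted p = 5.33e-05) and Slc25a22, a mitochondrial glutamate carrier, by 0.43 (SE 0.0411, adjusted p = 0.000266). The lower gene was Glud1, which frees ammonia from glutamate (-0.56, SE 0.0375, adjusted p = 6.12e-05). Against CTL, NASH+ISO had 5 of the 14 higher and 6 lower, with a median of 0.00, where 23.3% of all genes were called higher and 23.0% lower.

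Genes of ornithine and arginine handling outside the cycle did not move one way. The list mixes genes that draw these amino acids away with others, such as Aldh18a1, which makes a precursor of ornithine. Of the 13 genes listed, 4 were higher and 3 lower in NASH against CTL, with a median of 0.09. In NASH+ISO against NASH, 3 were higher and 5 lower, with a median of 0.05. The counts in NASH are near the 24.7% of all genes called higher and 28.3% called lower, and in NASH+ISO against NASH 19.9% of all genes were called higher and 19.8% lower. Oat, the aminotransferase that breaks down ornithine in pericentral hepatocytes, read 9.03 and 9.04 for CTL, 5.17 and 5.29 for NASH and 4.18 and 4.25 for NASH+ISO. It was thus furthest from CTL in NASH+ISO, opposite to the order of Ass1, Asl and Arg1. Slc7a2, a carrier of arginine and other cationic amino acids, read 10.60 and 10.62 for CTL, 9.01 and 8.99 for NASH and 9.89 and 9.93 for NASH+ISO, lower in NASH by -1.61 (SE 0.039, adjusted p = 2.13e-07). All 4 of its probe sets were lower in NASH, and 1 of them was called higher in NASH+ISO against NASH. Odc1, which commits ornithine to polyamines, was higher in NASH by 1.03 (SE 0.0392, adjusted p = 1.33e-06) and Azin1, the antizyme inhibitor that protects it, by 0.59 (SE 0.0496, adjusted p = 6.42e-05), and in NASH+ISO against NASH they were lower, by -0.78 (adjusted p = 2.1e-05) and -0.48 (adjusted p = 0.000375). The remaining Odc1 probe set did not pass in NASH (-0.10). Slc25a2, a second ornithine carrier, lay under 2.90 in all 3 groups.

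Glutamine synthesis is the pericentral route that catches the ammonia escaping the cycle. The RNA signal of its enzyme and of the carriers listed with it was lower than CTL in both diseased groups. All 3 genes of this list fell in NASH, with a median of -1.90, where 28.3% of all genes were called lower. In NASH+ISO against CTL all 3 were also lower, with a median of -1.50, where 23.0% of all genes were. Glul, the glutamine synthetase, read 10.85 and 10.87 for CTL, 8.94 and 8.97 for NASH and 9.36 and 9.36 for NASH+ISO, and both of its probe sets rose from NASH to NASH+ISO (0.41 for the brighter, SE 0.0379, adjusted p = 0.000243). Rhbg, an ammonia carrier of the same cells, was lower in NASH by -0.97 (SE 0.0398, adjusted p = 1.89e-06) and 0.37 above NASH in NASH+ISO (SE 0.0398, adjusted p = 0.000457). For the brightest probe set of Slc1a2, a glutamate carrier, NASH and NASH+ISO were below 2.90, so it was at least 17.2-fold lower than CTL in each. The 5 probe sets of Slc1a2 differed from CTL by -4.22 to -0.22 in NASH and -4.16 to -0.10 in NASH+ISO. In each comparison 4 of them were called lower.

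Of 13 genes known to regulate the cycle's genes or proteins, 9 were lower, 1 higher and 3 not called in NASH against CTL, with a median of -0.53, where 28.3% of all genes were called lower and 24.7% higher. Hnf4a, a nuclear receptor on which Otc expression in mouse liver depends, read 10.77 and 10.77 for CTL, 9.54 and 9.58 for NASH and 9.91 and 9.94 for NASH+ISO, by its brightest probe set (-1.21, SE 0.039, adjusted p = 6.73e-07, with 3 of 4 probe sets lower). Klf15, a factor of amino acid breakdown, was lower in NASH by -1.14 (SE 0.0449, adjusted p = 1.56e-06), and Sirt3, a mitochondrial deacetylase, by -1.13 (SE 0.0378, adjusted p = 7.85e-07). The higher gene was Sirt5, a deacylase that acts on Cps1, at 5.92 and 6.10 for CTL, 6.38 and 6.38 for NASH and 6.67 and 6.68 for NASH+ISO, so that its NASH+ISO arrays were highest. In NASH+ISO against NASH 8 of 13 were higher, 1 lower and 4 not called, with a median of 0.16, where 19.9% of all genes were called higher. Cebpb is among the 8 and had its other probe set called lower (-0.20). Foxo1, an insulin-restrained factor of glucose synthesis, rose most by its brightest probe set, by 0.91 (SE 0.0409, adjusted p = 1.45e-05), and did not pass against CTL (-0.01, adjusted p = 0.886). Its 3 probe sets rose by 0.28 to 0.91, and 2 of them were called lower than CTL in NASH+ISO, down to -0.38. The lower gene was Nr3c1, the glucocorticoid receptor (-0.15, adjusted p = 0.0308). Against CTL, NASH+ISO still had 8 of the 13 lower and 2 higher, with a median of -0.27. There, 23.0% of all genes were called lower and 23.3% higher.

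Periportal genes outside the cycle were mostly lower in NASH. Of 11 genes, 8 were lower, 2 higher and 1 not called in NASH, with a median of -0.56, and 6 were higher, 3 lower and 2 not called in NASH+ISO against NASH, with a median of 0.33. Over all genes 28.3% were called lower and 24.7% higher in the first comparison, and 19.9% higher and 19.8% lower in the second. Hal, which opens histidine breakdown, read 8.72 and 8.76 for CTL, 5.07 and 5.07 for NASH and 6.85 and 6.95 for NASH+ISO, and Sds, a serine dehydratase, 9.38 and 9.38, 7.04 and 6.99, and 8.87 and 8.87. Pck1, an enzyme of glucose synthesis, and Etnppl, a phospholyase, were also lower in NASH, by -3.41 and -3.43 in their brightest probe sets. All 3 probe sets of Pck1 were called lower, with differences of -3.41 to -0.37. Cdh1 and Ctsc were the higher genes in NASH, and they and Hsd17b13 were the lower genes in NASH+ISO against NASH. Against CTL, NASH+ISO still had 7 of the 11 lower and 2 higher, with a median of -0.47. There, 23.0% of all genes were called lower and 23.3% higher. The list was drawn up for where its genes are expressed in the lobule, and position in the lobule was not measured in these bulk samples.

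**Figure D4:**
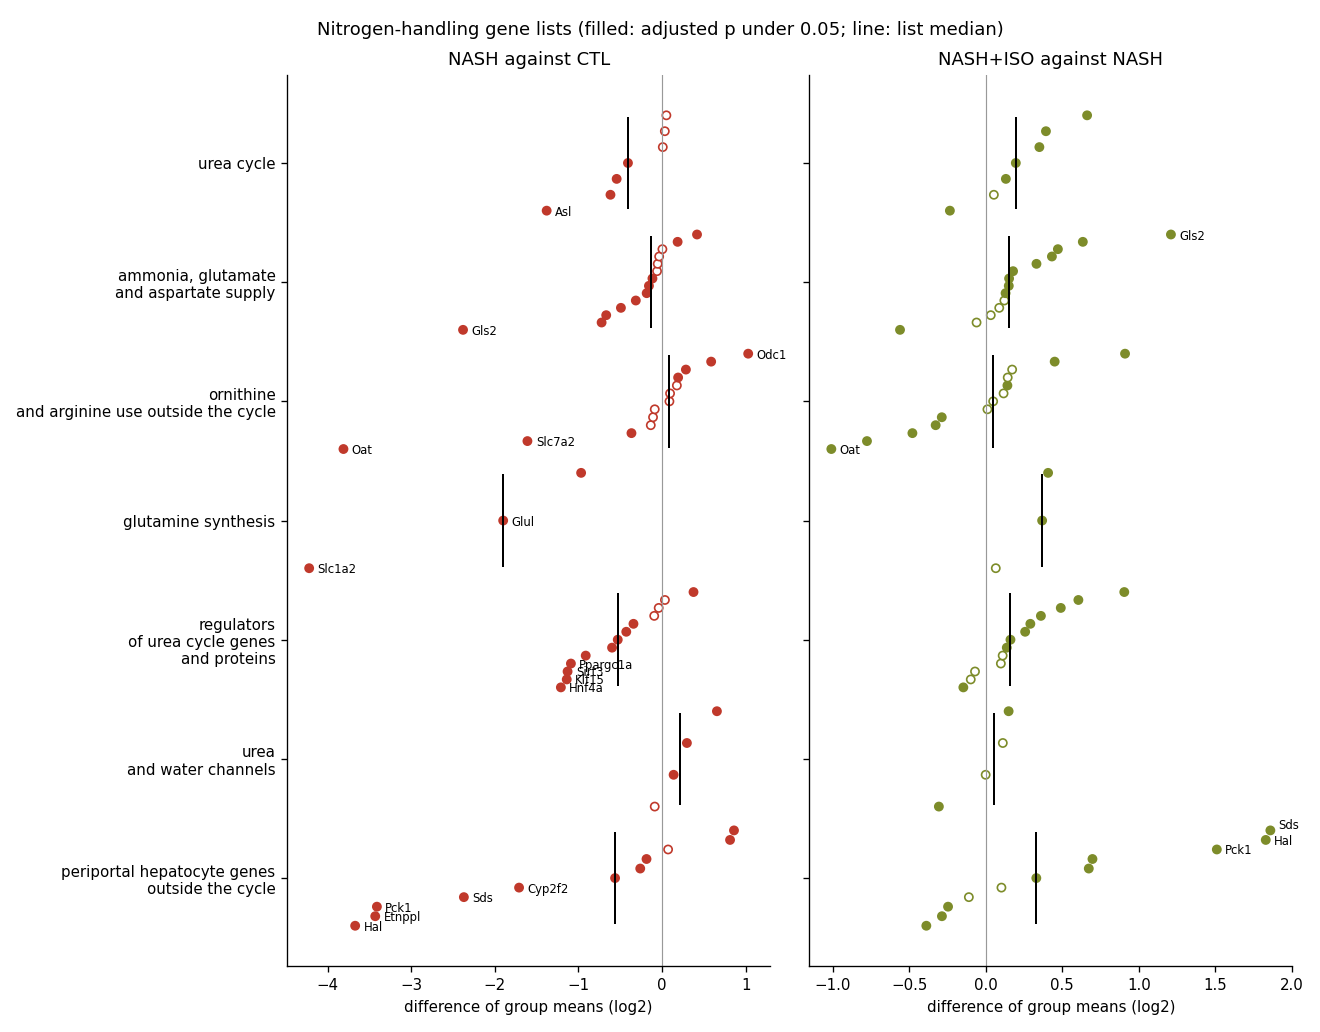
Differences of group means (log2, horizontal axes, different scales) of genes on 7 lists of nitrogen handling, with 1 point per gene from its brightest probe set, filled where the adjusted p was under 0.05, and a black line at each list's median. Genes beyond 1 log2 unit are named. The medians of the urea cycle, supply, regulator and periportal lists are below 0 in NASH against CTL (-0.41, -0.14, -0.53 and -0.56) and above 0 in NASH+ISO against NASH (0.20, 0.15, 0.16 and 0.33). In NASH+ISO against CTL, which is not drawn, these medians were -0.15, 0.00, -0.27 and -0.47.

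Marker genes of liver cell types were read beside these values. Over all genes, 24.7% were called higher and 28.3% lower in NASH against CTL, and 23.3% and 23.0% in NASH+ISO against CTL. Hepatocyte markers Alb, Ttr, Apoa1, Fgb and Serpinc1 had a summed signal of 14.37 to 14.39 log2 in CTL, 14.38 in NASH and 14.35 to 14.36 in NASH+ISO. Of these 5, 1 (Serpinc1) was lower in NASH against CTL and 2 (Apoa1 and Serpinc1) were lower in NASH+ISO against CTL. The brightest, Alb, Ttr and Apoa1, averaged 12.55, 12.6 and 12.27, near the highest value read (12.74). Whether this compressed differences in the sum was not tested. The summed signal of the 7 urea cycle genes was 13.27 in CTL, 12.99 in NASH and 13.19 to 13.22 in NASH+ISO. The 7 macrophage markers summed to 9.40 to 9.41, 9.77 to 9.78 and 9.29 to 9.31 (3 higher and 1 lower in NASH, and 2 higher and 2 lower in NASH+ISO against CTL). The 6 markers of stellate cells and myofibroblasts summed to 9.14 to 9.17, 9.60 to 9.61 and 8.96 (3 higher and 1 lower in NASH, and 1 higher and 2 lower in NASH+ISO against CTL). Reln fell by 0.75 in NASH+ISO against CTL, while Acta2 was 1.29 above it. The summed signal of the 5 cholangiocyte markers was 7.57 to 7.58, 8.50 to 8.53 and 8.82 to 8.83, with 2 called higher (Spp1 and Sox9) and 1 lower (Krt19) in NASH. Spp1 alone averaged 7.15, 8.29 and 8.63. The 5 endothelial markers were at 7.20 to 7.26, 7.24 to 7.27 and 7.81 to 7.82 (2 higher and 1 lower in NASH). In NASH+ISO against CTL, 3 were higher (Lyve1, Cdh5 and Kdr) and 0 lower, and Stab2 (-0.03) and Pecam1 (-0.01) did not pass. Lyve1 alone averaged 4.71, 5.44 and 6.39. The 3 red cell markers summed to 6.95 to 6.99, 5.76 to 5.77 and 5.68 to 5.70, with 1 called lower in NASH (Alas2). The 4 neutrophil markers summed to 5.03 to 5.08, 4.89 to 4.95 and 4.99 to 5.08, with S100a8 and Camp, and the cholangiocyte marker Krt7, at or under 2.90 on average. The part of other cell types in the urea cycle values was not tested.

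Profiles across the 6 arrays most like those of the urea cycle genes were sought over genes above 2.90, by the distance between profiles after each was centred on its own mean. Nearest to Otc came Kmo, of tryptophan breakdown, at a distance of 0.0275 log2, with -0.63 in NASH and -0.56 in NASH+ISO against CTL. Eral1 was nearest to Ass1 (0.0283), Fchsd2 to Arg1 (0.0465), Ing5 to Nags (0.0247) and Tmem176a to the brighter Slc25a15 probe set (0.0305). The nearest profile to Asl was at 0.127 (Fbxl20, -1.44 in NASH and -0.83 in NASH+ISO against CTL), followed by Vldlr, the receptor of very low density lipoprotein, at 0.131. Distances were not scaled to a gene's own spread around its mean. By the same measure, that spread was 1.38 for Asl and 0.177 to 0.684 for the other urea cycle genes, so the larger distance does not set Asl apart. No urea cycle gene was among the 3 nearest profiles of another. With 6 arrays in 3 groups, these distances describe 3 group levels and little else.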

How the data were processed

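Total liver RNA was labelled and read on Affymetrix MG-430 PM array strips. RMA in Affymetrix Expression Console gave the log2 signals that the authors deposited as a value table of 45141 probe sets. Their 2 workbooks hold other log2 values for these arrays (mean difference -0.0994), used as an alternative, and group means, fold changes and p-values from Transcriptome Analysis Console, which were not used. No genome build of the annotation is named in the sources used here. The RNA input is 100 ng in the design text but 9.4 ug in the label protocol.

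Leaving out 104 controls, 45037 probe sets were tested. Gene symbols are the workbooks' own, and 38068 probe sets name 1 gene. The probe set with the highest mean over the 6 arrays stood for a gene (20670 genes). A mean was fitted for each of the 3 groups with limma 3.58.1 in R 4.3.3 (3 residual and 4.01 prior degrees of freedom), p-values were adjusted by Benjamini-Hochberg over all probe sets, and limma's adjusted p under 0.05 was the call. On simulated arrays of 45037 probe sets, 90% to 97.5% of changes of 1 log2 unit were recovered over the 3 comparisons, and 65% to 80% of changes of 0.5. There, 40 probe sets were changed at each size and 44837 were not, with the spread among arrays only. In the data 37.2% to 49.2% were called, so these shares do not give the recovery in these comparisons. Precision is limited by the number of arrays. The highest of 17 control probe sets with no mouse target (2.90 log2) served as a guide to background. Named genes were the urea cycle genes, up to 4 genes with the largest change of each list, 8 genes named regardless of change, and up to 3 nearest profiles per gene, of which some are printed. Cdh1, Ctsc, Hsd17b13, Got2, Mdh1, Cebpb, Slc14a2 and some markers are named to account for a count, after their values were seen. The members, lists and motifs were chosen with earlier results of these data known. Alternatives were other fits, priors, scalings, filters, thresholds, values and probe set rules, and leaving out each array. One list of marker genes is not reported here.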

Additional observations from a re-analysis of the deposited data

How the results depend on the processing

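Of 483 repeats of single urea cycle differences under other settings, 450 kept their direction and their side of the threshold, 17 lost the call, 11 gained one and 5 turned their sign, all 5 without a call in either setting. After quantile normalization the differences of NASH against CTL were -0.063 for Cps1, -0.105 for Nags and -0.0289 for the brighter Slc25a15 probe set, and that of NASH+ISO against NASH was 0.00885 for the dimmer Slc25a15 probe set. Over the fits that left out 1 array, Nags in NASH against CTL ranged from -0.0191 (without NASH array 1) to 0.0365. The calls of Otc, Asl, Arg1 and both Ass1 probe sets as lower in NASH held under the alternatives that kept the threshold. Of the fold thresholds below, that of 2 ended all but those of Asl and the dimmer Ass1 probe set. That of 1.5 ended only those of Arg1 and the brighter Ass1 probe set. Counts that moved by over 1.5 times follow, and the cause was not tested except where the threshold itself was changed. At a fold change of at least 2 with an unadjusted p under 0.05, 1621 probe sets were called in NASH against CTL, and NASH+ISO had 964 calls against CTL and 347 against NASH. Of the 11 urea cycle probe sets, 2 were then lower in NASH (1 gene by its brightest probe set), 0 higher, and 0 either way in the other comparisons. At a fold change of at least 1.5 with an adjusted p under 0.05 the totals were 4673, 3183 and 1775. There, 2 genes were lower and 0 probe sets higher in NASH, 1 probe set and gene was lower and 0 higher in NASH+ISO against CTL, and 3 probe sets (1 gene) were higher and 0 lower in NASH+ISO against NASH. Without moderation of the spread, 10467 probe sets were called in NASH+ISO against NASH. With a prior that follows the mean level, 3 urea cycle probe sets and 2 genes were higher in NASH (Cps1, adjusted p = 0.0439, and Slc25a15, 0.017), and with each gene's probe sets averaged 1 gene was (Slc25a15, 0.20). After quantile normalization 1 gene was higher in NASH+ISO against CTL. Over the fits that left out 1 array, 1 to 2 genes were higher in NASH+ISO against CTL and 3 to 4 in NASH+ISO against NASH, with the main count at 5. Median centring brought Cps1 in NASH+ISO against NASH to 0.10 (adjusted p = 0.0938), and the fit of only the 4 arrays compared to an adjusted p of 0.0503. Same-numbered arrays shared little deviation (correlations of 0.0465 to 0.0916 over probe sets), and with the replicate block 22277, 19315 and 16819 probe sets were called in the 3 comparisons, with 7 urea cycle probe sets lower in each comparison with CTL. The 2 technical arrays per group limit what can be said of mice.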

Other observations

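Among channels that let urea and water pass, Aqp8 and Aqp9 were higher in NASH than in CTL. Aqp9, a channel of hepatocytes for glycerol and urea, read 9.18 and 9.14 log2 for CTL, 9.44 and 9.47 for NASH and 9.15 and 9.15 for NASH+ISO, so that it was higher in NASH (0.30, SE 0.0394, adjusted p = 0.000682) and did not pass in NASH+ISO against CTL (-0.01, adjusted p = 0.865). Aqp8, a water channel that also passes ammonia, was higher than CTL in NASH, by 0.66 (SE 0.0404, adjusted p = 1.27e-05). In NASH+ISO it stood 0.81 above CTL (SE 0.0404, adjusted p = 7.42e-06) and 0.15 above NASH (adjusted p = 0.0256). Of 4 channel genes 3 were called higher in NASH against CTL by limma, where 24.7% of all genes were called higher. Of these 3, Slc14a1 lay under 2.90 in all groups. Slc14a2 did not pass by its brighter probe set (-0.09) and was called lower by the other (-0.41).

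Aldh18a1, which makes the precursor of proline and of ornithine from glutamate, was highest in NASH+ISO. It read 5.48 and 5.43 for CTL, 5.66 and 5.63 for NASH and 6.08 and 6.12 for NASH+ISO, and all 5 of its probe sets were higher in NASH+ISO than in CTL, by 0.27 to 3.88 log2. Oat, which joins the same precursor to ornithine, was lowest in NASH+ISO.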
